A study of Mus musculus with 6 samples.

Results

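Genes for the proteins of the mitochondrial ribosome, those with a symbol of Mrpl or Mrps and a number, were followed in mouse pancreatic islets under 2 diets, high fat and normal. The reference annotation holds 78 such protein-coding genes, and 76 of them were linked to an assembled locus by the lengths of its exons and introns. Mrpl41 and Mrpl57 had no locus. Mrpl28, Mrpl39 and Mrpl51 were set aside because over 90% of the bases of their exons lay in another locus as well. This left 73 genes of 39470 loci, 46 of the large subunit, 26 of the small subunit, and Mrps36, which was counted in neither. Of these, 72 had enough reads to be tested; Mrpl21 did not, with 20 reads over all libraries.

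The islets, the clusters of hormone-secreting cells in the pancreas, came from C57BL/6 mice that were 14 weeks old when killed. One group had eaten a high fat diet for 8 weeks and the other a normal diet, and each diet gave 3 libraries. Total RNA was depleted of ribosomal RNA and sequenced without selection for poly(A) tails, so both diets share this preparation. The sources do not tie libraries to separate animals, and each p-value therefore reflects the scatter among libraries, some of which may be technical. Each library held 104657337 to 135353777 reads counted to loci. The columns of one group are headed HDR, which was read as the high fat diet, so every direction given here rests on that reading.

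The mitochondrial ribosome translates the few proteins that mitochondrial DNA encodes, all of them subunits of the respiratory chain and ATP synthase. Its ribosomal RNAs come from mitochondrial DNA, whereas its proteins are encoded in the nucleus, made in the cytosol and imported. Some of these proteins descend from bacterial ribosomal proteins and others were added in the mitochondrial lineage. Beta cells, the insulin-producing cells that make up most of a mouse islet, depend on respiration to couple glucose to insulin release.

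Of the 72 genes tested, 10 were higher under the high fat diet and 0 were lower, at an adjusted p of 0.05 in the quasi-likelihood test of edgeR, adjusted by Benjamini-Hochberg over 23983 loci. That is 13.9% of the family, beside 5.95% of all loci tested that were higher and 4.86% that were lower. Among 4565 other coding genes of similar level (9.69 to 53.0 CPM, reads scaled by the library total after TMM normalisation), 6.57% were higher and 2.37% lower. The log2 fold changes were small and lay largely on 1 side. Above 0 were 70 of 72, beside 45.5% of all loci and 64.1% of coding genes of similar level. The median was 0.23, against -0.05 for all loci and 0.09 for coding genes of similar level. The highest was 0.49 and the lowest -0.26. At an unadjusted p under 0.05, 33 of the 72 were higher and 0 were lower, beside 15.4% of all loci and 21.1% of the coding genes of similar level that were higher. The number of calls depended on the tool and on single libraries. DESeq2 called 16 members higher and 0 lower, beside 9.49% of all loci and 13.2% of coding genes of similar level that were higher. The number was 39 without high fat library 3, and 0 without high fat library 1 or 2 or without normal diet library 1, 2 or 3. No locus of any kind passed the threshold without any one of the normal diet libraries. Cyclic loess normalisation, a minimum fold of 1.5, a block for the replicate number and an acinar covariate each left 0 calls as well. The median log2 fold change was 0.15 under cyclic loess. The number of values above 0 was 60 without high fat library 1 or 2, 61 without normal diet library 1, 63 under cyclic loess and 66 with the replicate block.

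**Figure D1:**
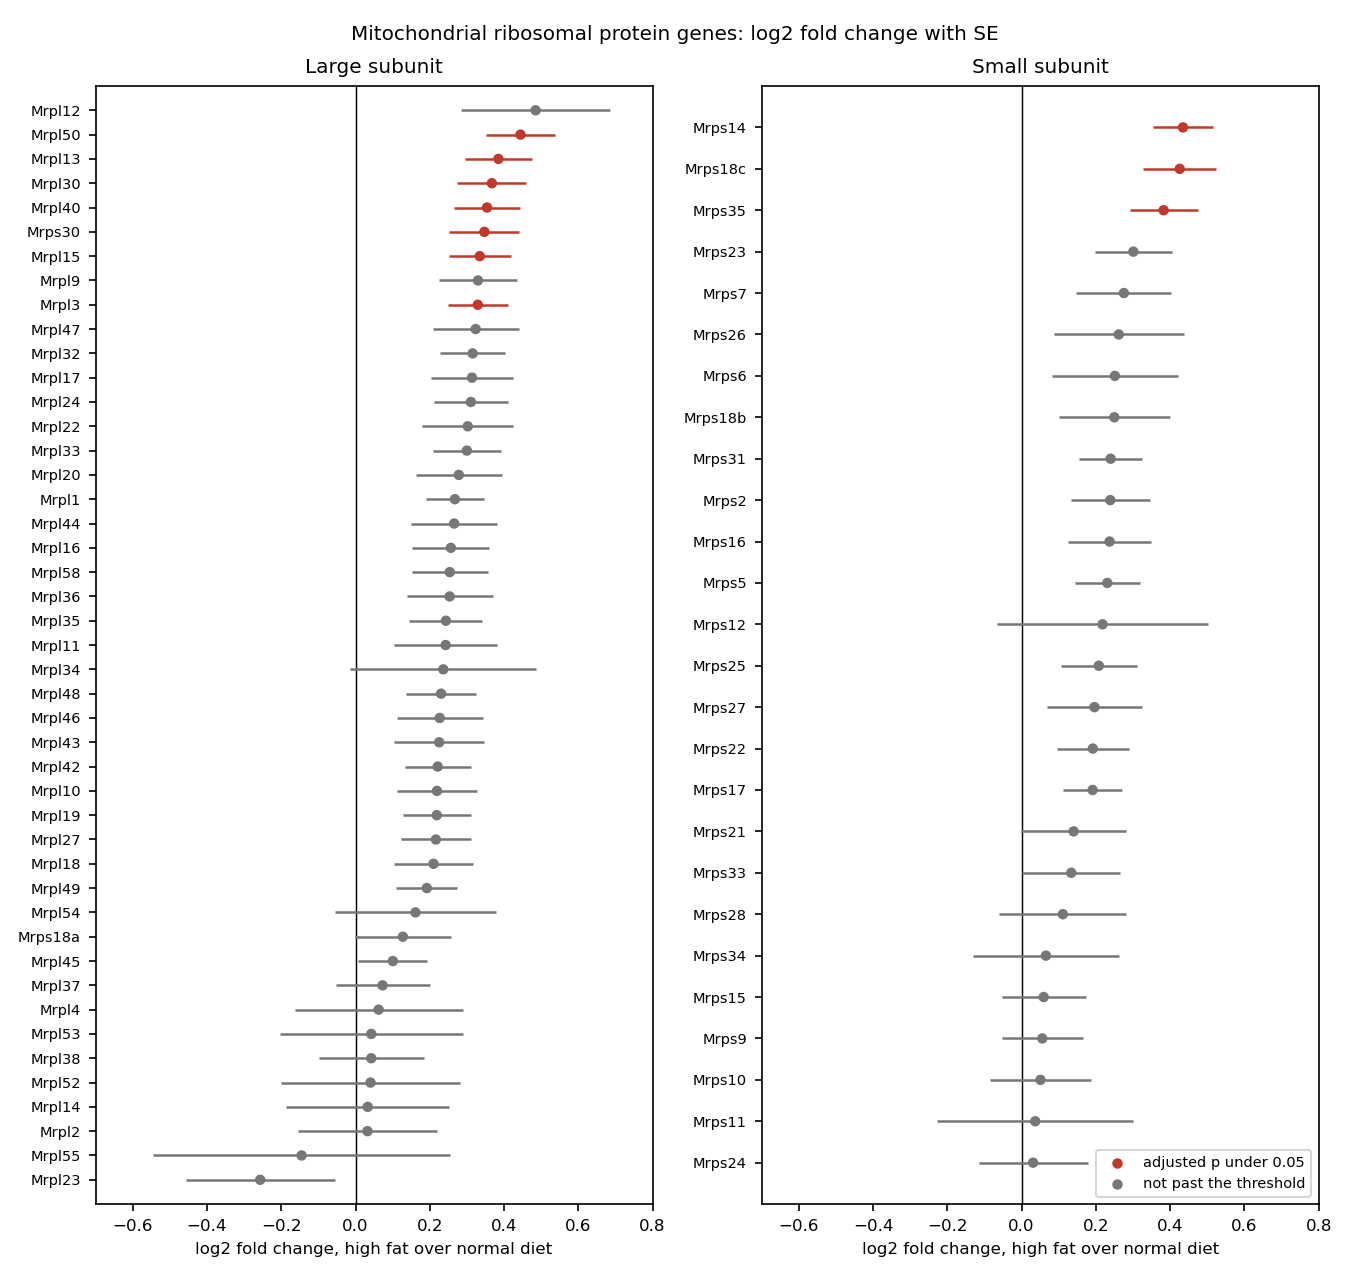
Log2 fold change, high fat over normal diet, of 71 mitochondrial ribosomal protein genes (Mrps36 is not drawn), with bars of 1 SE, for the large subunit on the left and the small subunit on the right. Red points passed the adjusted p of 0.05. Mrpl23 and Mrpl55 are the genes below 0.

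**Figure D2:**
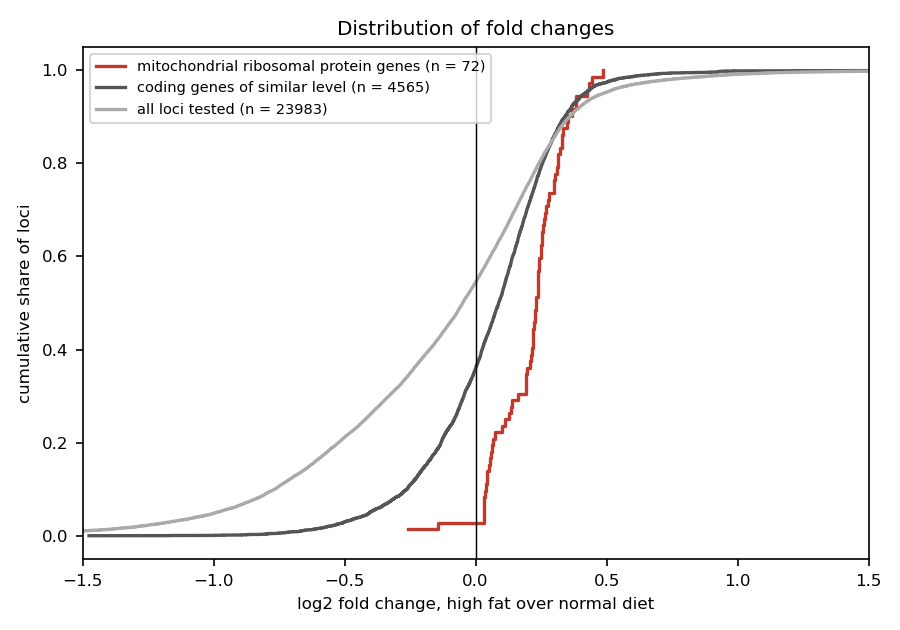
Cumulative share of loci against log2 fold change, high fat over normal diet, for 72 mitochondrial ribosomal protein genes, 4565 coding genes of similar level and all 23983 loci tested. The horizontal axis ends at 1.5 in each direction, and the family's curve starts at -0.26 and ends at 0.49.

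Summed over the 73 genes, the family took 2377, 2424 and 2025 CPM in high fat libraries 1, 2 and 3, against 1881, 1942 and 1986 CPM in normal diet libraries 1, 2 and 3. The groups did not overlap, but high fat library 3 lay close above the highest normal diet library. The mean was 2275 ± 218 CPM under the high fat diet and 1936 ± 52.9 CPM under the normal diet (SD, n = 3 each), a ratio of 1.18. Both subunits contributed. Large-subunit genes summed to 1470, 1514 and 1303 CPM in the high fat libraries, against 1160, 1204 and 1233 CPM in the normal diet libraries. Small-subunit genes summed to 906, 909 and 721 CPM in the high fat libraries, against 719, 737 and 752 CPM in the normal diet libraries. In the small-subunit sum, high fat library 3 therefore fell within the range of the normal diet. All these sums include loci that hold another gene or run well past the gene. The largest, Mrps24, also holds Urgcp and had 99.6 CPM in high fat library 3, against 125 to 135 CPM under the normal diet. Without such loci the family summed to 2000, 2062 and 1738 CPM in the high fat libraries, against 1571, 1627 and 1655 CPM in the normal diet libraries. The small-subunit sum was not taken without them.

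In the large subunit 7 of 45 genes tested were higher and 0 lower, with a median log2 fold change of 0.24. In the small subunit the count was 3 of 26 higher and 0 lower, with a median of 0.21, and all 26 values were above 0. Genes with a bacterial counterpart had 6 of 43 higher (median 0.24), and genes particular to mitochondrial ribosomes had 4 of 28 higher (median 0.21). The difference between subunits or between classes was not tested. Without high fat library 3 the large and small subunits had 27 and 12 genes higher, and without any other single library both had 0.

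The small-subunit gene with the smallest p was Mrps14, a counterpart of a bacterial small-subunit protein, at chr1:162125391-162131317 on the forward strand (build mm9, 3 merged exons). It had 62.6, 67.7 and 60.7 CPM in the high fat libraries, against 48.0, 47.2 and 46.2 CPM in the normal diet libraries. Every high fat library lay above every normal diet library, and the means of 63.7 ± 3.63 and 47.1 ± 0.917 CPM (SD, n = 3 each) gave a log2 fold change of 0.43 (SE 0.081, adjusted p = 0.0247). Mrps18c, chr5:101227778-101233488 on the forward strand, had 22.2, 23.2 and 22.6 CPM in the high fat libraries, against 17.1, 15.7 and 17.7 CPM in the normal diet libraries. Its groups were again apart, with a log2 fold change of 0.43 (SE 0.098, adjusted p = 0.0343). Mrps35, which has no bacterial counterpart, lies at chr6:146991292-147019424 on the forward strand. It had 23.0, 23.4 and 22.8 CPM in the high fat libraries, against 18, 18.02 and 17.1 CPM in the normal diet libraries, a log2 fold change of 0.38 (SE 0.091, adjusted p = 0.0369). The groups were apart for Mrps35 as well.

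Mrps18c is 1 of 3 related genes whose proteins sit at different places in the ribosome. In the human ribosome Mrps18c takes the site of the bacterial protein, Mrps18b is a further small-subunit protein and Mrps18a belongs to the large subunit. Mrps18b had 8.69, 11.1 and 9.02 CPM in the high fat libraries, against 9.19, 7.86 and 7.15 CPM in the normal diet libraries, with a log2 fold change of 0.25 (adjusted p = 0.278). Mrps18a had 35.2, 35.9 and 26.1 CPM in the high fat libraries, against 28.3, 30.8 and 29.9 CPM in the normal diet libraries, with a log2 fold change of 0.13 (adjusted p = 0.532). The groups overlapped for both, through high fat libraries 1 and 3 for Mrps18b and high fat library 3 for Mrps18a. Mrps18b shares 60.0% of its exonic bases with another locus, so its counts are partial.

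Among large-subunit genes Mrpl50, which has no bacterial counterpart, had the smallest p. At chr4:49525469-49533955 on the reverse strand, it had 63.0, 61.6 and 72.7 CPM in the high fat libraries, against 50.01, 46.1 and 48.9 CPM in the normal diet libraries. High fat library 3 was the highest of the 6, and the means of 65.8 ± 6.05 and 48.3 ± 2.00 CPM (SD, n = 3 each) gave a log2 fold change of 0.44 (SE 0.092, adjusted p = 0.0285). Mrpl13, at chr15:55365650-55388867 on the reverse strand, is a counterpart of a bacterial large-subunit protein. It had 41.1, 43.2 and 41.3 CPM in the high fat libraries, against 30.8, 30.8 and 34.6 CPM in the normal diet libraries, with a log2 fold change of 0.38 (SE 0.089, adjusted p = 0.0348). For Mrpl13, normal diet library 3 was nearer than the others to the high fat values, but the groups did not overlap.

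Mrpl3, the counterpart of a bacterial protein that reaches towards the site of peptide bond formation, lies at chr9:104955598-104979806 on the forward strand. It had 55.1, 53.6 and 58.3 CPM in the high fat libraries, against 42.5, 44.9 and 45.5 CPM in the normal diet libraries, a log2 fold change of 0.33 (SE 0.081, adjusted p = 0.0403). Mrpl15, chr1:4754787-4775817 on the reverse strand, had 35.04, 35.4 and 33.5 CPM in the high fat libraries, against 27.5, 27.8 and 27.2 CPM in the normal diet libraries. The normal diet libraries of Mrpl15 were within 1 CPM of each other, and its log2 fold change was 0.33 (SE 0.084, adjusted p = 0.0414).

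Mrpl40, without a bacterial counterpart, lies at chr16:18872111-18876730 on the reverse strand. It had 29.9, 32.99 and 31.1 CPM in the high fat libraries, against 24.1, 25.2 and 24.3 CPM in the normal diet libraries, a log2 fold change of 0.35 (SE 0.089, adjusted p = 0.0415). Mrpl30, chr1:37947307-37955178 on the forward strand, had 41.3, 46.7 and 40.5 CPM in the high fat libraries, against 31.8, 33.2 and 34.6 CPM in the normal diet libraries. Its high fat libraries spread more than those of Mrpl40, with library 2 highest, and its log2 fold change was 0.37 (SE 0.093, adjusted p = 0.0427). Mrps30 carries a small-subunit symbol, but its protein lies in the large subunit; its locus is at chr13:119168917-119176059 on the reverse strand. It had 29.9, 27.9 and 31.0 CPM in the high fat libraries, against 21.8, 24.1 and 23.9 CPM in the normal diet libraries, a log2 fold change of 0.35 (SE 0.094, adjusted p = 0.0495). The groups did not overlap for any of these 10 genes, a pattern found in 36 of the 72 members (50%), in 18.8% of all loci tested and in 28% of coding genes of similar level. The 10 genes share no exonic base with another locus. For some of them stretches of 50 bases also occur in transcripts of other genes on either strand (Mrps18c 23.2%, Mrpl13 23.9% and Mrps30 16.9% of such stretches). Copies elsewhere could split their reads, but whether these are copies or genes at the same place was not examined.

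**Figure D3:**
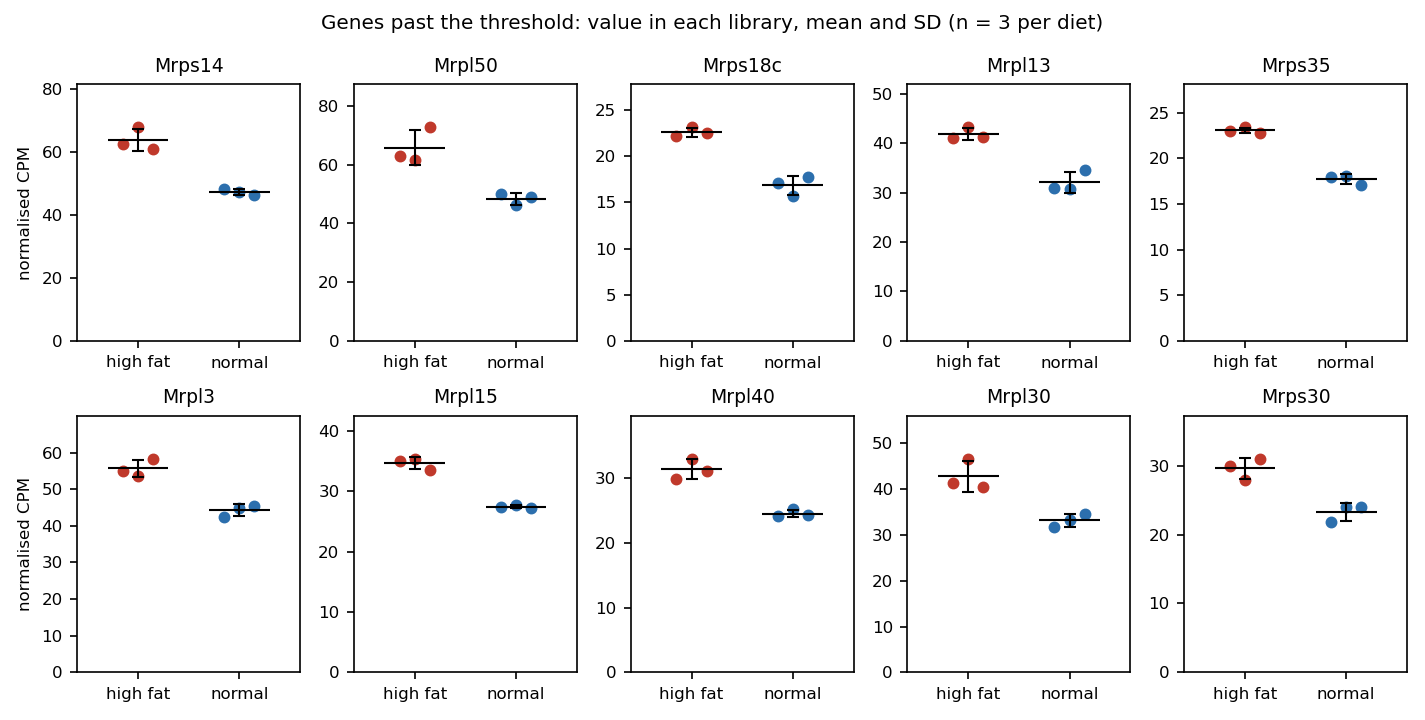
TMM-normalised CPM of the 10 genes past the threshold in each library, high fat left and normal diet right, with the mean and SD (n = 3 per diet); each vertical axis starts at 0. In each panel all 3 high fat libraries lie above all 3 normal diet libraries.

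The promoters of nuclear genes for mitochondrial proteins are known for binding sites of NRF1, of ETS factors such as GABP, and of YY1. In RefSeq windows from 250 bases before to 50 after the start (build GRCm38.p6), letters that stand for these sites were searched on both strands: GCGCA, any base and GCGC for NRF1, CCGGAAG for ETS factors, and AA, any base and ATGGCGG for YY1. These 3 sets of letters were chosen as common forms and cover only part of what each factor binds. Of 64 members with a window, 17.2% held the NRF1 letters, beside 7.17% of 17491 coding genes. The ETS letters were in 37.5% of members, beside 12.9% of coding genes, and the YY1 letters in 10.9%, beside 2.26%. At least 1 of the 3 was present in 36 members (56.2%), beside 20.1% of coding genes. Of the 10 higher genes 7 have a window, and 4 of those hold a match: Mrpl30 for NRF1, Mrpl3 and Mrps18c for ETS, and Mrps30 for YY1. A match describes the letters and was not tested as a bound site.

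The 150 bases before the start are shown for 4 genes, 5′ to 3′ on the strand of the gene, with matched letters in capitals. Mrpl30 (chr1:37890327-37890476, forward strand) and Mrpl12 (chr11:120484487-120484636, forward strand) hold the NRF1 letters on the opposite strand, beginning at -83 and -81 from the start. Mrpl3 (chr9:105053118-105053267, forward strand) holds the ETS letters at -19. Mrps14 (chr1:160195065-160195214, forward strand), the gene with the smallest p, holds none of the 3 and stands for the members without a match.
Mrpl30: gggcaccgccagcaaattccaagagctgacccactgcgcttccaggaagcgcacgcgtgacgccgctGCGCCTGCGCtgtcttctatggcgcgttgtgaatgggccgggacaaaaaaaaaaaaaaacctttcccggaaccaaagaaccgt
Mrpl12: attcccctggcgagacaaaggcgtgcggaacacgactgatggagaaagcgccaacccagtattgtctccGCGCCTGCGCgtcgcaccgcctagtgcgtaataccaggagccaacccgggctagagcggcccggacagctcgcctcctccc
Mrpl3: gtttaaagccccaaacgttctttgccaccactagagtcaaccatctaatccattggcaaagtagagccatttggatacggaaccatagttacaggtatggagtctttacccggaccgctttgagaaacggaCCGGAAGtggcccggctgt
Mrps14: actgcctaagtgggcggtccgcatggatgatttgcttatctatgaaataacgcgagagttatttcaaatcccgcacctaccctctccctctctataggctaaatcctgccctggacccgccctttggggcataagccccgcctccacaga

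Mrpl12, whose bacterial counterpart forms the stalk that recruits translation factors, had the largest log2 fold change of the family, 0.49 (SE 0.20), without passing the threshold (adjusted p = 0.136). It had 26.9, 23.9 and 14.8 CPM in the high fat libraries, against 15.9, 16.8 and 14.2 CPM in the normal diet libraries. High fat libraries 1 and 2 stood above the normal diet libraries and high fat library 3 lay among them; without that library the value was 0.71 (SE 0.10, adjusted p = 0.0034). Mrpl9, another gene of bacterial descent, had 62.0, 66.0 and 53.6 CPM in the high fat libraries, against 46.6, 45.1 and 52.7 CPM in the normal diet libraries (log2 fold change 0.33, adjusted p = 0.0734). Mrpl47 had 13.6, 12.7 and 15.05 CPM in the high fat libraries, against 11.5, 10.3 and 11.2 CPM in the normal diet libraries (log2 fold change 0.32, adjusted p = 0.097). For Mrpl9 and Mrpl47 all high fat libraries lay above all normal diet libraries. In all, 9 members had an adjusted p between 0.05 and 0.1, among them Mrpl9 and Mrpl47.

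At the other end were 5 genes with values near or below 0. Mrpl23, the counterpart of a bacterial protein at the exit of the peptide tunnel, had 0.486, 0.466 and 0.494 CPM in the high fat libraries, against 0.648, 0.511 and 0.568 CPM in the normal diet libraries. It was the single member with all high fat libraries below all normal diet libraries, an order held by 20.4% of all loci. The share was 9.84% among coding genes of the family's level (9.69 to 53.0 CPM), a range well above the level of Mrpl23. Mrpl23 had a log2 fold change of -0.26 (SE 0.20, adjusted p = 0.406) from 45 to 81 reads a library. Of its stretches of 50 bases, 66.7% occur in other genes. Mrpl55 had 0.141, 0.217 and 0.447 CPM in the high fat libraries, against 0.344, 0.310 and 0.252 CPM in the normal diet libraries (log2 fold change -0.15, adjusted p = 0.834). Its groups overlapped, and 81.8% of its exonic bases are shared. Under cyclic loess normalisation the log2 fold changes of Mrpl23 and Mrpl55 were 0.04 and 0.04, so neither direction held.

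Mrps24 had 148, 151 and 99.6 CPM in the high fat libraries, against 125, 130 and 135 CPM in the normal diet libraries (log2 fold change 0.03, adjusted p = 0.907), over a locus that also holds Urgcp. Mrpl2, the counterpart of a bacterial protein near the site of peptide bond formation, had 30.7, 31.7 and 18.3 CPM in the high fat libraries, against 25.2, 26.5 and 27.03 CPM in the normal diet libraries (log2 fold change 0.03, adjusted p = 0.924). In both, high fat libraries 1 and 2 were the highest of the 6 and high fat library 3 the lowest. Mrps36, now known as a subunit of the 2-oxoglutarate dehydrogenase complex and not of the ribosome, had 1.26, 1.67 and 1.11 CPM in the high fat libraries, against 1.30, 1.28 and 1.37 CPM in the normal diet libraries. Its groups overlapped (log2 fold change 0.03, adjusted p = 0.927), and 36.2% of its stretches of 50 bases occur in other genes.

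The low place of high fat library 3 recurred across the family. The median log2 level of a member relative to the normal diet mean was 0.28, 0.32 and 0.11 in high fat libraries 1, 2 and 3, against -0.03, 0.01 and 0.03 in normal diet libraries 1, 2 and 3. In 61 of 72 members high fat libraries 1 and 2 both lay above all normal diet libraries. In 21 members high fat library 3 lay below all normal diet libraries, and in 16 of these libraries 1 and 2 lay above them. These orders were counted in members only, so no share over all loci stands beside them. The widest such gap among named genes was in Mrps12, the counterpart of a bacterial protein of the decoding site, with 69.8, 72.4 and 29.6 CPM in the high fat libraries, against 45.4, 55.3 and 46.99 CPM in the normal diet libraries. Its log2 fold change was 0.22 (SE 0.28, adjusted p = 0.631), and 0.54 (SE 0.092, adjusted p = 0.0061) without high fat library 3.

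The deviation of high fat library 3 from the other high fat libraries went with the GC content of the transcript. Over 72 members, the log2 ratio of high fat library 3 to the mean of high fat libraries 1 and 2 correlated with GC content at a Pearson's r of -0.60 and a Spearman's rho of -0.67. Over 4545 coding genes of similar level the values were -0.72 and -0.77. These are descriptions across genes of the same libraries, and genes are not independent replicates. The 24 members with the lowest GC content (39.6 to 47.4%) held 7 of the 10 calls and had a median log2 fold change of 0.28. The 24 members in the middle (47.5 to 52.5%) held 2 calls with a median of 0.24, and the 24 with the highest GC content (52.6 to 60.6%) held 1 call with a median of 0.09. Without high fat library 3 the medians of these groups were 0.27, 0.31 and 0.30, with 14, 13 and 12 calls.

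Leaving out high fat library 3 gave 39 members higher and 0 lower of 72, with a median log2 fold change of 0.30, and the same 10 genes were among the 39. The share of loci called higher in that comparison was 12.4% of all loci and 19.1% of coding genes of similar level. On the second principal component over all loci, high fat library 3 lay at -59.4 and high fat libraries 1 and 2 at 32.3 and 25.5, so its distance was not limited to this family. The cause of that distance was not tested.

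**Figure D4:**
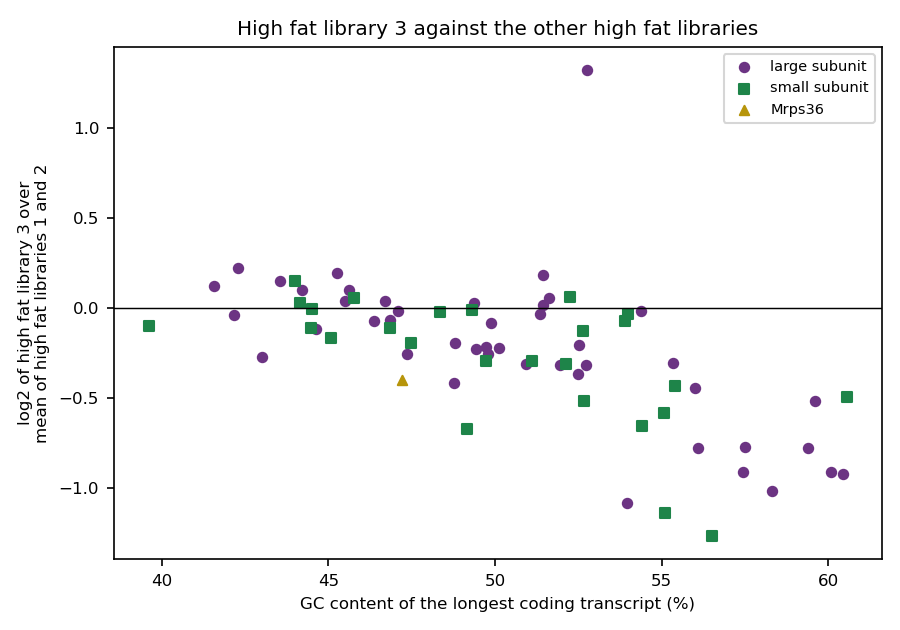
For each of 72 mitochondrial ribosomal protein genes, the log2 ratio of high fat library 3 to the mean of high fat libraries 1 and 2, against the GC content (%) of its longest coding transcript; circles are large-subunit, squares small-subunit genes and the triangle Mrps36. The genes with the highest GC content lie lowest, with a median of -0.55 in the 24 highest; the single point above 1 is Mrpl55, which has few reads.

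The RNA levels of the members differed widely. Levels were compared as CPM per kb of exon not shared with another locus, averaged over the 6 libraries, for the 63 tested genes whose locus neither holds another gene nor has over 1.5 times the exon length of the gene in the reference. The median level was 19.9 CPM per kb for large-subunit genes and 17.6 CPM per kb for small-subunit genes. In the small subunit the highest levels were those of Mrps21 (81.7 CPM per kb), Mrps12 (77.9 CPM per kb) and Mrps16 (40.05 CPM per kb). In the large subunit they were those of Mrpl20 (64.3 CPM per kb), Mrpl24 (50.8 CPM per kb) and Mrpl36 (50.1 CPM per kb), and Mrpl54 (49.7 CPM per kb) and Mrpl30 (48.6 CPM per kb) came close after. Of these 8 genes, all but Mrpl54 have a bacterial counterpart, beside 43 of the 72 members tested. Where this list ends was set after the values were seen, and a link between level and class was not tested. Of the 8, only Mrpl30 belongs to the 10 that were higher under the high fat diet. The lowest were Mrpl23 (0.908 CPM per kb), Mrps36 (1.86 CPM per kb) and, with ample reads, Mrps22 (4.34 CPM per kb). Levels per kb use the merged exons of every assembled isoform, so a long assembled end lowers the value.

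The 3 highest genes of each subunit did not pass the threshold. Mrps21 had 39.7, 43.1 and 28.9 CPM in the high fat libraries, against 34.04, 33.1 and 34.3 CPM in the normal diet libraries (log2 fold change 0.14, adjusted p = 0.527). Mrpl20 had 48.5, 52.8 and 39.4 CPM in the high fat libraries, against 37.9, 37.5 and 40.6 CPM in the normal diet libraries (log2 fold change 0.28, adjusted p = 0.141). In both genes high fat library 3 was the one that brought the groups together. Mrpl36 had 51.6, 53.6 and 42.4 CPM in the high fat libraries, against 36.9, 43.2 and 43.7 CPM in the normal diet libraries (log2 fold change 0.25, adjusted p = 0.168). Mrpl24 had 48.2, 50.2 and 42.0 CPM in the high fat libraries, against 39.7, 35.1 and 38.3 CPM in the normal diet libraries (log2 fold change 0.31, adjusted p = 0.0738). Mrps16 had 24.2, 26.96 and 22.4 CPM in the high fat libraries, against 18.9, 21.5 and 21.98 CPM in the normal diet libraries (log2 fold change 0.24, adjusted p = 0.18). The groups overlapped for Mrpl36 and were apart for Mrpl24 and Mrps16. Mrps22 had 18.2, 18.3 and 19.0 CPM in the high fat libraries, against 15.9, 15.7 and 16.9 CPM in the normal diet libraries, apart as well (log2 fold change 0.19, adjusted p = 0.205).

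Many of these genes lie head to head with another gene. A gene on the opposite strand started within 1000 bases of the start of 27 of the 73 members (37.0%), against 16.1% of 17308 loci linked to coding genes. Mrpl46 and Mrps11 form such a pair with each other. Of 25 neighbours outside the family that were tested, 4 were higher and 0 lower, with a median log2 fold change of 0.11, beside 5.95% of all loci and 8.73% of loci linked to coding genes that were higher. Those 4 were Tcp1 beside Mrpl18 (0.41, adjusted p = 0.0205), Psma2 beside Mrpl32 (0.35, adjusted p = 0.0349), Cyb5rl beside Mrpl37 (0.42, adjusted p = 0.034) and Ndufb5 beside Mrpl47 (0.39, adjusted p = 0.0332). In 0 pairs did both genes pass the threshold. The neighbours of 5 higher members had values of -0.18 for Mtbp beside Mrpl13, -0.14 for Mitd1 beside Mrpl30, -0.06 for Hira beside Mrpl40, 0.23 for Zfp189 beside Mrpl50 and 0.11 for Helq beside Mrps18c.

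Mitochondrial ribosomal proteins work together with other factors, which were followed as lists, to be read beside the 5.95% of all loci and 8.73% of loci linked to coding genes that were higher. Of 4 further ribosomal proteins with other symbols (Dap3, Ptcd3, Chchd1 and Aurkaip1) 0 passed the threshold, with a median log2 fold change of 0.21. Of 13 mitochondrial translation factors 3 were higher and 0 lower (median 0.17). Mrrf, the ribosome recycling factor, had 28.2, 28.3 and 28.5 CPM in the high fat libraries, against 20.8, 22.9 and 21.97 CPM in the normal diet libraries (log2 fold change 0.37, adjusted p = 0.0372). Gfm1, an elongation factor, had 54.7, 56.3 and 57.9 CPM in the high fat libraries, against 45.3, 45.2 and 46.0 CPM in the normal diet libraries (log2 fold change 0.31, adjusted p = 0.0413). Mtif2, an initiation factor, was higher by 0.30 on the log2 scale (adjusted p = 0.0466). These 3 genes act in initiation, elongation and recycling. Of the 13 factors 10 had values above 0, and the lowest value was -0.21.

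Of 24 genes for assembly of the ribosome and modification of its RNA 0 passed the threshold (median 0.14, 19 of 24 above 0). Of 21 genes for mitochondrial aminoacyl-tRNA synthetases 1 was higher and 0 lower (median 0.11); this was Kars, which serves both cytosol and mitochondria, at 0.40 (adjusted p = 0.033). Of 20 genes for mitochondrial transcription and RNA handling 3 were higher and 0 lower (median 0.19). Rexo2, an exonuclease that removes short RNAs, had 83.7, 85.2 and 74.4 CPM in the high fat libraries, against 52.0, 59.9 and 52.5 CPM in the normal diet libraries (log2 fold change 0.56, adjusted p = 0.0207). Grsf1, an RNA-binding protein of mitochondrial RNA granules, had 209, 212 and 240 CPM in the high fat libraries, against 150, 164 and 163 CPM in the normal diet libraries (log2 fold change 0.47, adjusted p = 0.0238). Tfam, which packages and transcribes mitochondrial DNA, was higher by 0.28 (adjusted p = 0.0482). In all 3 genes the groups did not overlap.

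Of 10 regulators of nuclear genes for mitochondria 1 was higher and 0 lower (median 0.09). This was Ppargc1a, a coactivator of such genes, with 7.86, 8.49 and 11.1 CPM in the high fat libraries, against 3.45, 4.91 and 4.15 CPM in the normal diet libraries. Every high fat library was above every normal diet library, with a log2 fold change of 1.14 (SE 0.19, adjusted p = 0.0197). The genes for the factors whose letters were searched in the promoters did not pass the threshold, with log2 fold changes of -0.04 for Nrf1, 0.19 for Gabpa and 0.16 for Yy1. Over all these mitochondrial lists the 8 calls became 23 without high fat library 3 (where the calls over all loci, too, were 3075 in place of 1426), 1 without high fat library 1, and 0 without high fat library 2 or without normal diet library 1, 2 or 3.

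Cytosolic ribosomal protein genes had 8 of 70 higher and 0 lower, with a median log2 fold change of 0.09. Of their values 46 of 70 (65.7%) were above 0, against 70 of 72 in the mitochondrial family. The share above 0 was 45.5% of all loci and 58.3% of loci linked to coding genes. Their sum was 6821, 6987 and 4567 CPM in the high fat libraries, against 4887, 5080 and 5410 CPM in the normal diet libraries, so that high fat library 3 lay below all normal diet libraries, unlike in the sum of the mitochondrial family. The 11 loci on mitochondrial DNA, which carry no names in the sources, had 0 calls in either direction. Their median log2 fold change was 0.32, with 9 of 11 values above 0. They summed to 5081, 5542 and 7019 CPM in the high fat libraries, against 5127, 5523 and 4501 CPM in the normal diet libraries. The groups overlapped in this sum, and high fat library 3 was the highest of the 6, which did not hold for every locus. Most of the sum came from 1 locus, with 5439 CPM in high fat library 3.

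**Figure D5:**
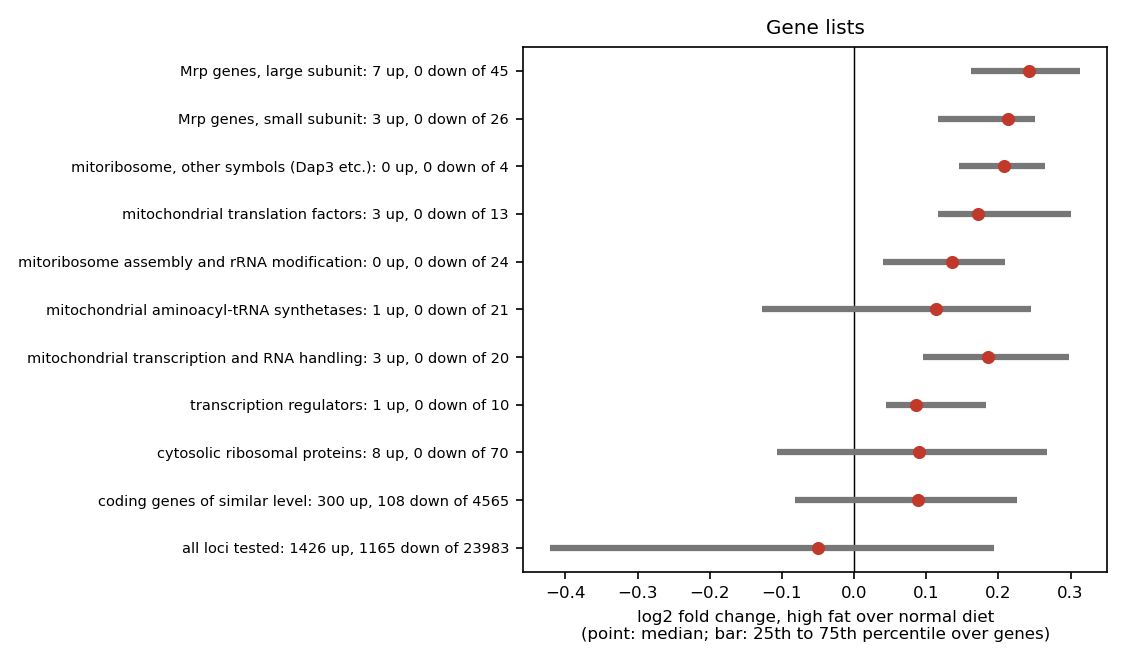
Median log2 fold change (point) and 25th to 75th percentile over genes (bar), high fat over normal diet, for the 2 subunits, the other lists and the comparison sets, with the numbers that passed the adjusted p of 0.05 in each direction. The medians of the large and small subunit, 0.24 and 0.21, lie right of coding genes of similar level, at 0.09.

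Islets hold several cell types, and in bulk RNA fewer cells of a type and less RNA per cell cannot be told apart. The calls in marker lists are to be read beside 5.95% of all loci tested that were higher and 4.86% that were lower. Beta cell markers had 2 of 6 higher and 0 lower, with summed levels of 84423 to 103794 CPM in the high fat libraries, against 58578 to 68868 CPM in the normal diet libraries. The 2 were Iapp, which encodes the hormone amylin (log2 fold change 0.72, adjusted p = 0.0139), and G6pc2, a glucose-6-phosphatase subunit (0.78, adjusted p = 0.0111). Slc2a2 and Nkx6-1, also beta cell markers, hold 0 counts because their exons are almost wholly shared with other loci. Alpha cell markers had 0 of 4 higher and 2 lower, with sums of 17357 to 21018 CPM in the high fat libraries, against 22136 to 24450 CPM in the normal diet libraries. Acinar markers, from the exocrine pancreas, had 0 of 17 past the threshold, with sums of 4944 to 10626 CPM in the high fat libraries, against 3452 to 6642 CPM in the normal diet libraries. Of the other marker lists, stromal markers had 2 of 7 higher and 0 lower, with the other 5 below 0 and a median log2 fold change of -0.44, Schwann cell markers 3 of 6 lower, myeloid markers 1 of 4 lower, and endothelial, duct and delta cell lists none past the threshold. Among adipocyte markers Fabp4 was higher (log2 fold change 1.33, adjusted p = 0.0152), with Plin1, which coats fat droplets, at 0 in every library. The part of these differences in the values of the mitochondrial ribosomal protein genes was not tested.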

How the data were processed

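Total RNA of islets was sequenced in 6 libraries, 3 per diet, with a stranded kit, per the labels' protocols. The submitters' processing notes name TopHat2 2.0.8, Cufflinks 2.1.1, HTSeq 0.5.4p3, edgeR and build mm9; their order and settings are not given in the sources used here. The authors deposited raw counts of reads per locus, which were used, and a scaled table, which was not. The deposited transcript file gives mm9 coordinates and no symbols, so loci were linked to GENCODE M21 genes by exon and intron lengths on the same chromosome and strand, with no conversion of coordinates. All 548 loci whose exons lie wholly within loci of the opposite strand hold 0 counts, so reads in shared exons were left out of the counts, and levels of genes with shared exons are partial.

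The counts went into edgeR 4.0.16 under R 4.3.3 (filterByExpr, TMM, quasi-likelihood test for diet, two-sided, Benjamini-Hochberg over 23983 loci, threshold 0.05; common dispersion 0.0287). The SE was taken from the test, as the size of the log2 fold change over the root of its F statistic. limma 3.58.1 and DESeq2 1.42.0 served for alternatives. The cyclic loess setting used log2 CPM and the moderated t-test of limma in place of the quasi-likelihood test on counts. Similar level means between the 10th and 90th percentile of the family's mean CPM; members were left out of that set.

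The members and lists were chosen with earlier results of these data known. Named are all members past the threshold; the 5 lowest and 3 highest log2 fold changes among the rest; the 3 highest and 3 lowest levels per kb in each subunit; the Mrps18 genes, Mrps30 and Mrps36; and up to 4 genes past the threshold in each list. Mrpl35, Mrps10 and Mrps6, low in level, lie in loci much longer than the gene or holding another one and are named here only; Mrpl54, the facing neighbours and the genes of the factors whose letters were searched were named after their values were seen.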

Additional observations from a re-analysis of the deposited data

How the results depend on the processing

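The 10 calls became 4 with no filter on low counts, 16 with DESeq2, and 0 under cyclic loess, a minimum fold of 1.5, a replicate block or an acinar covariate; leaving out 1 library each gave 0 to 39. The lower count was 0 throughout. For all loci, higher and lower calls were 2276 and 1838 with DESeq2, 249 and 232 under cyclic loess, 8 and 3 with the minimum fold, 54 and 20 with the replicate block, 0 and 0 with the acinar covariate, and 0 to 3075 and 0 to 1960 without 1 library. The 7 large-subunit calls became 2 with no filter, 13 with DESeq2, 0 to 27 without 1 library and 0 in the other 4 settings; the 3 small-subunit calls became 0 in those 4 and 0 to 12 without 1 library. The 8 calls in the other mitochondrial lists became 4, 17 and 1 with no filter, DESeq2 and cyclic loess, 0 with the minimum fold, block and covariate, and 0 to 23 without 1 library. Leaving out the 9 loci that hold another gene or run well past the gene, a choice made after seeing the data, gave 10 calls. The family's median log2 fold change ran from 0.15 to 0.30 over these settings.

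The members with a value above 0 were 70 of 72, and 63 under cyclic loess, 66 with the replicate block, 67 with the acinar covariate and 60 to 70 without 1 library. Among the genes named by rule, values that changed sign were, under cyclic loess, 0.0362 for Mrpl23, 0.0435 for Mrpl55, -0.18 for Mrps24, -0.0839 for Mrpl2 and -0.0069 for Mrps12; -0.0335 for Mrps36 with the covariate; and -0.0076 for Mrpl2 with the block. Without 1 library the log2 fold changes ranged from -0.75 to 0.17 for Mrpl55, -0.0617 to 0.21 for Mrps24, -0.14 to 0.16 for Mrps36, -0.0946 to 0.25 for Mrpl2 and -0.0551 to 0.15 for Mrps10. The cause was not tested. Deviations of same-numbered libraries from the mean of their diet correlated across loci at -0.07, 0.07 and -0.01. For differently numbered libraries the values ran from -0.16 to 0.15. Centring on the mean of few libraries makes such values balance about 0, so they are a weak guide to pairing. The main test did not take the replicate numbers as pairs. Acinar levels did follow the numbers, at a mean log2 CPM of 5.92, 6.95 and 6.62 in high fat libraries 1, 2 and 3 and 5.51, 6.55 and 6.25 in normal diet libraries 1, 2 and 3, as did total counts. Whether the numbers mark a shared day or batch is not given in the labels. Mrpl23, Mrpl55 and Mrps36 rest on few reads, and counts of genes with shared exons cover only part of the gene.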
